A study of Homo sapiens with 6 samples.

Results

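The region described here is a stretch of human 28S ribosomal RNA from position 3991 to position 4280, counted from the first base of the deposited 28S sequence. Its members are all positions between these bounds, whatever their values, and they are 290 of the 6939 positions that the series measured in 18S and 28S rRNA. All 290 positions had at least 100 reads crossing them in both libraries of each pair, so none was left out. The deposited 28S sequence has 5070 bases, the same length as the RefSeq gene RNA28SN5, and positions are given in that numbering with no genome coordinate. The window has 114 G (39.3%), 91 C, 45 A and 40 U, and its G+C content was 70.7%, against 65.6% in the rest of the 2 rRNAs. None of the 100 pseudouridines listed from general knowledge, counting those that fell on a U of the sequence, lies in it.

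The RNA came from HEK293T/17, an established line of human embryonic kidney cells, after removal of short RNAs. It was treated with CMC, a carbodiimide, or mock-treated without it, and each was reverse transcribed in 1 of 3 ways: by HIV reverse transcriptase with magnesium (HIV RT), by SuperScript III with manganese (SuperScript III/Mn) or by SuperScript III with magnesium (SuperScript III/Mg). This gave 6 groups of 1 library each, namely CMC and mock under HIV RT, CMC and mock under SuperScript III/Mn, and CMC and mock under SuperScript III/Mg. Every value below therefore compares 2 libraries and has no replicate check.

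CMC attaches to the exposed nitrogen of uridine, pseudouridine and guanosine, and in the usual protocol an alkaline wash then strips it from all but pseudouridine. A reverse transcriptase that meets the adduct can fall off, which ends the cDNA, or it can read through and insert a wrong base. Ribosomal RNA also carries methyl groups on ribose, placed by box C/D snoRNA particles, and a few methylated bases such as N6-methyladenosine. A ribose methyl group can slow or end reverse transcription, whereas N6-methyladenosine pairs normally with T and is mostly silent in sequencing.

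The whole window is shown first because the results turn on single bases in their surroundings, written 5′ to 3′ with T for U as deposited. Capitals mark U4031, G4042, C4054, G4150, G4196, U4202, A4220, U4227 and G4228, in that order. Of these, G4042, C4054, G4196, U4227 and G4228 are listed as ribose-methylated and A4220 as N6-methyladenosine, from general knowledge of 28S rRNA.
28S window: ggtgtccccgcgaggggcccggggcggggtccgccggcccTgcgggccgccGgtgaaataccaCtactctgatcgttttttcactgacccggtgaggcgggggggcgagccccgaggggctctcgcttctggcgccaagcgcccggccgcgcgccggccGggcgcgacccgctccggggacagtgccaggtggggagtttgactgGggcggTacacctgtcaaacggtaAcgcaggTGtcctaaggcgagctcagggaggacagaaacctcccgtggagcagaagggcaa

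The 21 bases around 7 positions are given for reference beside the results. They are positions that changed most or carry a listed modification, and C4148, which was often misread under SuperScript III/Mg with and without CMC. Capitals mark the base that names the line, together with C4030 beside U4031, G4042 beside U4044, G4150 beside C4148, and U4227 and G4228 beside U4232.
U4031: ccgccggccCTgcgggccgcc
U4044: gggccgccGgTgaaataccac
C4148: cgcgcgccggCcGggcgcgac
G4156: ggccgggcgcGacccgctccg
U4202: actggggcggTacacctgtca
m6A4220: tcaaacggtaAcgcaggtgtc
U4232: gcaggTGtccTaaggcgagct
The U of U4202 and U4232 is followed by A while that of U4031 and U4044 is followed by G.

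Between 21206954 and 47002169 reads ended within the 2 rRNAs in a library. Within the window the number of crossing reads ran from 3650, at G4002 in the SuperScript III/Mg mock library, to 759796 in the HIV RT mock library. Positions up to the middle of the window were covered less than those after it in all 6 libraries, with a median of 33225 against 139976 crossing reads in the HIV RT CMC library and of 26473 against 158350 in the SuperScript III/Mg mock library. Wilson 95% intervals were at most 0.759 points to either side for a mutation share and 1.22 points for a stop share. These intervals cover counting error only: the labels describe no molecular identifiers, and PCR copies of 1 molecule count as separate reads.

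Stops were the main change in the window. The stop share of a position is the reads whose cDNA ended just before it, over those reads plus the reads that crossed it. A position was called where Fisher's exact test between the CMC and the mock library passed at an adjusted p under 0.05, with Benjamini-Hochberg adjustment across both rRNAs, and the shares differed by at least 5 percentage points. Under HIV RT, 33 of the 290 positions rose with CMC (11.4%) and 13 fell (4.48%), while 10.1% of all tested positions rose and 3.66% fell. Under SuperScript III/Mn, 20 rose (6.90%) and 17 fell (5.86%), while 8.38% of all tested positions rose and 1.98% fell. Under SuperScript III/Mg, 22 rose (7.59%) and 20 fell (6.90%), while 9.22% of all tested positions rose and 1.84% fell. The share of rises was thus near the background in all 3 conditions, and the share of falls was above it with SuperScript III; that difference was not tested. The split of rises and falls depends on the general shift of each base. With the median change of the same base outside the window taken off, the counts were 21 rises and 13 falls under HIV RT, 16 and 17 under SuperScript III/Mn, and 12 and 21 under SuperScript III/Mg. For U that median includes the listed pseudouridines, of which the window has none.

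**Figure D1:**
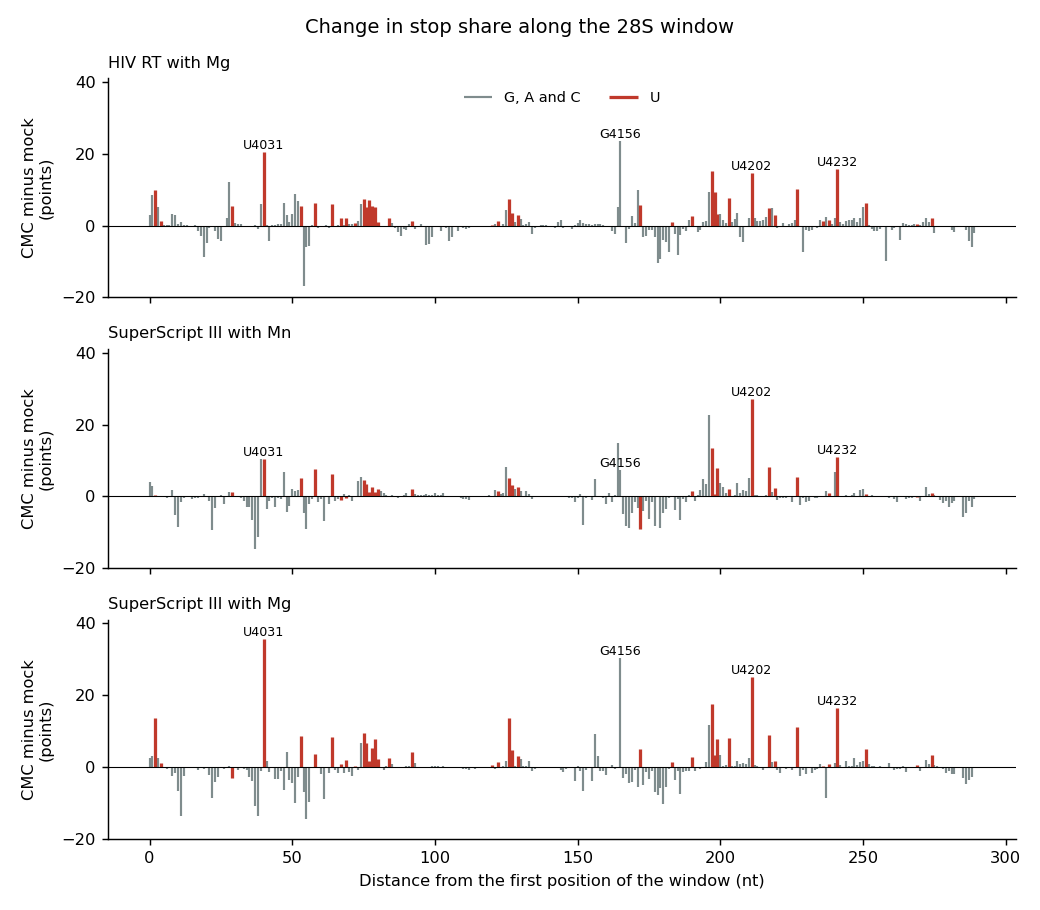
Change in stop share, CMC minus mock in percentage points, at each of the 290 positions, plotted against distance from the first position of the window, with 1 panel for each reverse transcription condition and U in red. U4031, U4202 and U4232 rise in all 3 panels, and G4156 is the highest rise under HIV RT at 23.6 points. Some bars below 0 at other bases stand side by side.

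Rises were more frequent at U than at other bases. Of the positions that rose, 20 of 33 were U under HIV RT, 11 of 20 under SuperScript III/Mn and 18 of 22 under SuperScript III/Mg. No A of the window rose in any condition. Rises at A were few outside it too, at 4.36%, 5.13% and 2.31% of the A there in the same order of conditions. With the median change of the same base outside the window taken off, U made up 7 of 21 rises under HIV RT, 7 of 16 under SuperScript III/Mn and 8 of 12 under SuperScript III/Mg, fewer than the other bases together in the first pair of conditions. Of the 40 U of the window, 50% rose under HIV RT, 27.5% under SuperScript III/Mn and 45% under SuperScript III/Mg, against 37.2%, 26.2% and 43.7% of all U outside. The U outside include the listed pseudouridines, of which the window has none. Without them the outside shares were 32.8%, 22.5% and 39.2% in the same order of conditions. The difference between the window and the outside was not tested. In all, 22 of the 40 U rose in at least 1 condition, 19 in at least 2 and 8 in all 3. Repeated rises were not counted at U outside the window, so these counts cannot be called particular to it. The change was above 0 at 40 of 40 U under HIV RT, 35 of 40 under SuperScript III/Mn and 39 of 40 under SuperScript III/Mg.

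The typical U of the window changed less than a pseudouridine. The median change in stop share at the 40 U was 4.94 points under HIV RT, 1.74 points under SuperScript III/Mn and 3.87 points under SuperScript III/Mg. At U outside the window that are not on the pseudouridine list, the medians were 2.86, 1.17 and 3.49 points in the same order of conditions. At the 100 listed pseudouridines they were 13.7, 8.35 and 17.7 points. In levels, the median stop share at the window's U was 7.18% with CMC and 2.33% in mock under HIV RT, 5.03% and 2.71% under SuperScript III/Mn, and 7.51% and 2.48% under SuperScript III/Mg.

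U4031 had the largest stop change of the window under SuperScript III/Mg. Its stop share there was 59.4% with CMC (95% interval 58.8 to 59.9) and 23.6% in mock (22.8 to 24.3), a rise of 35.8 points. Under HIV RT it was 26.1% with CMC and 5.61% in mock. Under SuperScript III/Mn it was 29.3% with CMC and 18.9% in mock. The position thus rose in all 3 conditions, and with SuperScript III its mock share was already the highest of the 40 U with either ion. Under SuperScript III/Mg its share was above that of 99.5% of the U outside the window with CMC and of 99.6% in mock. It thus stood out there without CMC as well. With CMC the figure was 95.6% under HIV RT and 96.6% under SuperScript III/Mn. Its 5′ neighbour C4030 rose under HIV RT (8.80% with CMC, 2.75% in mock) and SuperScript III/Mn (20.3% with CMC, 9.97% in mock), but not under SuperScript III/Mg (4.59% with CMC, 5.72% in mock). C4029, a further base upstream, fell with SuperScript III, to 10.7% with CMC against 21.96% in mock with Mn and to 9.47% with CMC, against 23.0% in mock, with Mg. On the 3′ side, G4032 and C4033 were not called in any condition.

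U4202 had the largest rise of the window under SuperScript III/Mn. Its stop share was 33.6% with CMC and 6.60% in mock there, a rise of 27.0 points. It was 31.8% with CMC and 6.79% in mock under SuperScript III/Mg, and 20.9% with CMC and 6.23% in mock under HIV RT. The mock shares of this U lay close together in the 3 conditions, unlike those of U4031, and each CMC share was at least 3 times its mock share. Of the bases within 2 nt, G4200, A4203 and C4204 were not called, and G4201 rose under SuperScript III/Mn (12.2% with CMC, 7.15% in mock).

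The other U that rose in all 3 conditions were U4044, U4055, U4117, U4188, U4218 and U4232. At U4232 the stop share was 20.1% with CMC and 4.27% in mock under HIV RT, 15.9% and 4.82% under SuperScript III/Mn, and 23.7% and 7.38% under SuperScript III/Mg. At U4188, the first base of a run of 3 U, it was 21.2% with CMC and 5.99% in mock under HIV RT, 23.9% and 10.4% under SuperScript III/Mn, and 25.5% and 7.86% under SuperScript III/Mg. These 2 positions had rises of at least 11.1 points in every condition. The 4 others had smaller ones in at least 1 condition. Averaged over the 3 conditions their changes were 8.86 points at U4218, 8.73 points at U4117, 6.90 points at U4055 and 6.46 points at U4044.

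**Figure D2:**
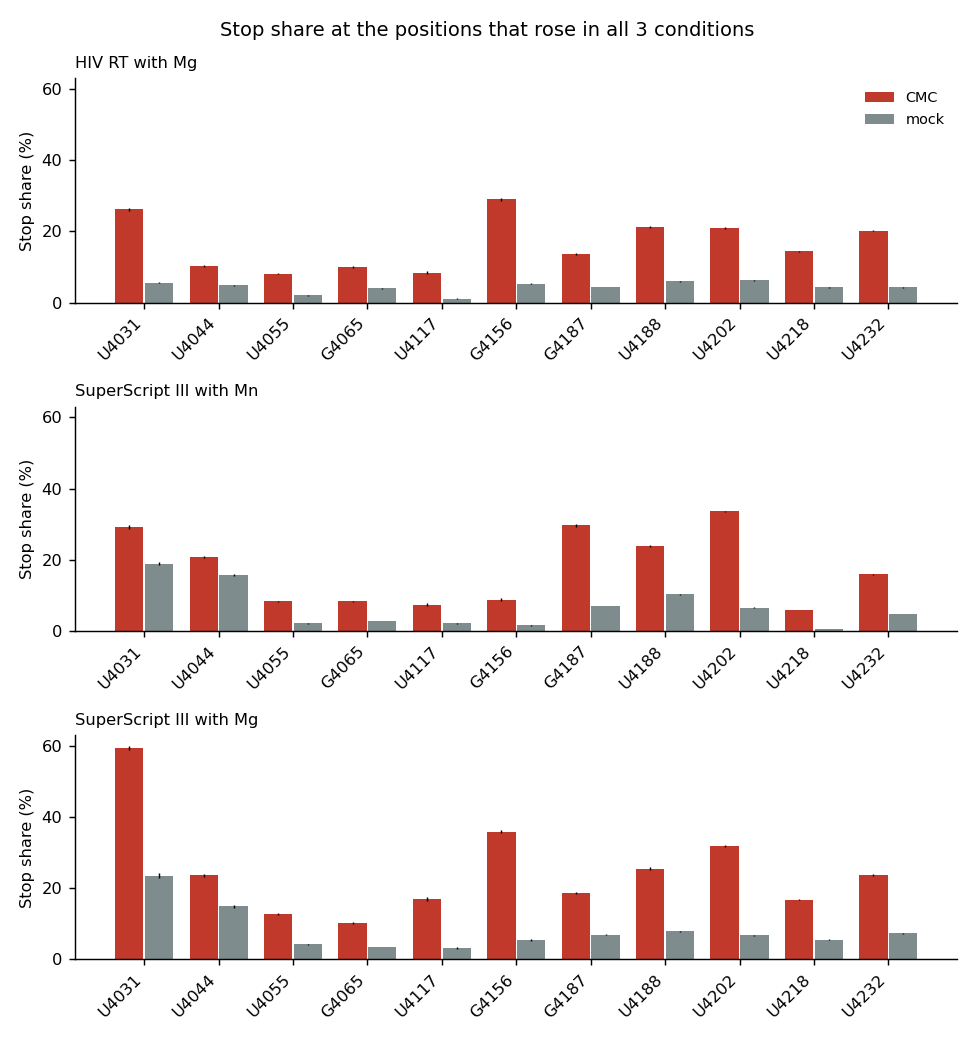
Stop share in percent with CMC (red) and in mock (grey) at the 11 positions that rose in all 3 conditions, with 1 panel for each condition, bars for single libraries and lines for Wilson 95% intervals. Each CMC bar stands above its mock bar, and U4031 reaches 59.4% under SuperScript III/Mg.

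For comparison, the pseudouridines listed at 4293 and 4299, just past the window's 3′ end, had stop shares of 11.1% with CMC and 0.686% in mock, and of 37.3% with CMC and 2.95% in mock, under HIV RT. Under SuperScript III/Mg the shares were 8.39% with CMC and 2.37% in mock at 4293, and 38.01% with CMC and 1.93% in mock at 4299. U4031 and U4202 thus had CMC shares between or above those of these 2 sites, on mock shares that were higher than at either. Unlisted U outside the window reached stop changes of 40.6 points under HIV RT, 48.5 under SuperScript III/Mn and 51.4 under SuperScript III/Mg. These were above the changes of U4031 and U4202 in each condition.

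The stop change at U differed by the base on its 3′ side, the base that the enzyme copies just before it reaches the U. The 5 U followed by A had a median change of 10.1 points under HIV RT, 7.54 points under SuperScript III/Mn and 11.2 points under SuperScript III/Mg. The 13 U followed by C had medians of 1.53, 0.769 and 1.197 points in the same order of conditions. The 8 U followed by U and the 14 followed by G lay between these, with medians of 7.20 and 2.86 points under HIV RT. Unlisted U outside the window had the same order, with medians of 8.64 points before A, 4.88 before U, 2.35 before G and 1.55 before C under HIV RT, so the order is not particular to the window. Of the 8 U that rose in all 3 conditions, 4 were followed by A (of 5 in the window), 2 by U (of 8), 2 by G (of 14) and 0 by C (of 13). U4031 is the exception in size, being followed by G and yet the highest of the 40 under HIV RT and SuperScript III/Mg.

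**Figure D3:**
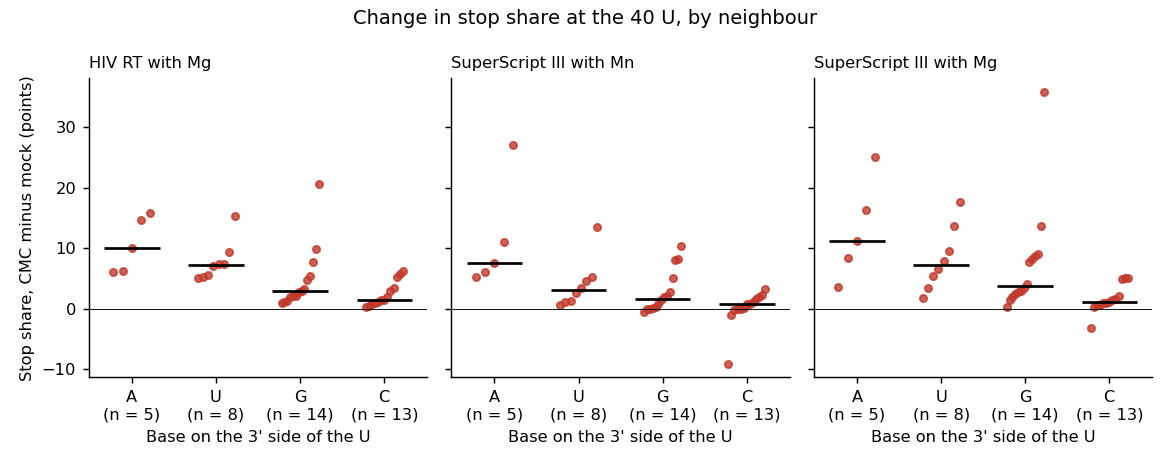
Change in stop share, CMC minus mock in percentage points, at each of the 40 U of the window, sorted by the base on the 3′ side, with 1 panel for each condition and a black line at the median. The line is highest before A and lowest before C in all 3 panels, and the topmost point before G is U4031 under all 3 conditions.

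In the run of 6 U at positions 4066 to 4071, 5 rose under HIV RT, 0 under SuperScript III/Mn and 4 under SuperScript III/Mg. Changes in the run lay between 1.03 and 7.46 points under HIV RT, between 1.15 and 4.66 points under SuperScript III/Mn and between 1.75 and 9.55 points under SuperScript III/Mg. Its first base, U4066, had a stop share of 11.6% with CMC and 4.13% in mock under HIV RT. Its last base, U4071, was not called in any condition.

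Rises at other bases mostly sat 1 nt upstream of a U. Of the 250 positions of the window that are not U, 17 rose in at least 1 condition. A U followed on the 3′ side for 12 of these 17, and 12 of the 32 such positions rose (37.5%), against 5 of the 218 that had another base there (2.29%). Outside the window the shares were 32.9% and 2.66%, so this too was general in the data. The split was made after the calls were seen. G4187, which precedes U4188, was the largest of them: its stop share was 13.7% with CMC and 4.43% in mock under HIV RT, 29.7% and 7.01% under SuperScript III/Mn, and 18.7% with CMC, 11.7 points above mock, under SuperScript III/Mg. G4065, which precedes the run of 6 U, also rose in all 3 conditions, by a mean of 6.10 points.

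G4156 was the largest rise with no U beside it. Its stop share was 29.0% with CMC and 5.34% in mock under HIV RT, 8.83% and 1.58% under SuperScript III/Mn, and 35.8% and 5.44% under SuperScript III/Mg. The change under HIV RT, 23.6 points, was the largest of any position of the window in that condition. C4155, just upstream, rose under HIV RT (15.3% with CMC, 10.1% in mock) and most under SuperScript III/Mn (16.9% with CMC, 1.99% in mock), but its share under SuperScript III/Mg was 4.76% with CMC and 5.02% in mock. With Mn the larger rise was thus at C4155 and with Mg it was at G4156. The 3 other positions that rose with no U on the 3′ side were C4038, G4042 and G4147.

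Stops fell mainly at bases other than U, and some falls lay side by side. Of the 35 positions that fell in at least 1 condition, 34 were G, C or A, and U4163 was the exception. Of the U outside the window, 0.0897% fell under HIV RT, 0.359% under SuperScript III/Mn and 0.0897% under SuperScript III/Mg. The rarity of falls at U was thus general in the data. Between G4166 and C4177, 9 of 12 positions fell in at least 1 condition, a stretch named after the calls were seen. Such stretches were not counted outside the window, so this one cannot be called particular to it. A4170, within it, fell in all 3 conditions: its stop share was 3.10% with CMC and 12.5% in mock under HIV RT, 3.997% and 12.8% under SuperScript III/Mn, and 1.46% and 7.40% under SuperScript III/Mg. The other position that fell in all 3 was A4046, at 4.51% with CMC and 10.4% in mock under HIV RT, 9.17% and 18.2% under SuperScript III/Mn, and 8.68% and 23.1% under SuperScript III/Mg. Its neighbour G4045 had the highest mock stop share of the window under HIV RT, 26.6%, and fell there by 16.9 points to 9.69% with CMC.

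A fall of 5 points needs a mock share of at least 5%, so the falls could be called only where stops occurred without CMC, and their mock shares are a description. G4045, G4169 and G4249 had the 3 highest mock shares under HIV RT and were also its 3 largest falls. Under SuperScript III/Mn, C4028 had the highest mock share, 32.6%, and the largest fall, to 18.0% with CMC. Under SuperScript III/Mg, G4002 had the highest mock share, 26.0%, and a fall to 12.4% with CMC. In the mock libraries with SuperScript III, stop shares of 10% or more were more common in the window than outside, at 26 positions (8.97%, against 4.04% outside) with Mn and 25 positions (8.62%, against 3.38%) with Mg. Under HIV RT 14 positions reached it (4.83%, against 4.57%). A stop can also be the natural end of an RNA fragment, and its part in these values was not tested.

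Some stretches had no called stop in any condition. The 3 longest were positions 4090 to 4115 and 4250 to 4275, of 26 bases each, and 4118 to 4142, of 25 bases. In all, 70 of the 290 positions had a called rise or fall in at least 1 condition. Neither this count nor the length of such stretches was taken outside the window, so both are descriptions of the window alone.

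The listed N6-methyladenosine m6A4220 stood out by its stops in the HIV RT mock library. Its stop share was 2.48% with CMC (95% interval 2.41 to 2.55) and 9.78% in mock (9.69 to 9.87) under HIV RT, a called fall of 7.30 points. Under SuperScript III/Mn it was 1.39% with CMC and 1.99% in mock, and under SuperScript III/Mg 0.791% with CMC and 1.55% in mock, which were not called. The HIV RT mock share ranked 15 of the 290 positions and 4 of the 45 A, and it was above that of 98.4% of the A outside the window. With SuperScript III the mock share was near the median of the window's A (1.82% with Mn, 1.41% with Mg). The next A upstream, A4219, had the opposite order, with mock shares of 3.18% under HIV RT, 9.07% under SuperScript III/Mn and 8.61% under SuperScript III/Mg. The listed N6-methyladenosine of 18S, m6A1832, had stop shares of 1.53% with CMC and 3.36% in mock under HIV RT, 1.49% and 3.70% under SuperScript III/Mn, and 0.378% and 1.38% under SuperScript III/Mg, so its HIV RT mock share was above that with Mg but not above that with Mn.

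Mismatches at A4220 were ordinary for an A under HIV RT and low with SuperScript III. Its mutation share, the reads showing a different base in percent of those crossing it, was 0.458% with CMC and 0.688% in mock under HIV RT, 0.138% and 0.107% under SuperScript III/Mn, and 0.0427% and 0.0475% under SuperScript III/Mg. Among the 45 A of the window it ranked 28 with CMC and 23 in mock from the top under HIV RT, 39 in both libraries under SuperScript III/Mn, and 45 with CMC and 42 in mock under SuperScript III/Mg.

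The 5 listed ribose methylations had no common stop pattern. Gm4042 had high stop shares in all 6 libraries, at 16.6% with CMC and 7.84% in mock under HIV RT, 18.1% and 16.7% under SuperScript III/Mn, and 15.4% and 25.4% under SuperScript III/Mg. It rose under HIV RT, fell under SuperScript III/Mg and was not called with Mn. Gm4228 had 17.2% in mock under SuperScript III/Mg, sixth of the 114 G, and fell to 8.72% with CMC there. Its mock share was 1.51% under HIV RT and 2.21% under SuperScript III/Mn, so the high level was seen in 1 condition only. Um4227, its 5′ neighbour, was the U with the lowest stop share of the window under SuperScript III/Mn, with 0.0713% with CMC and 0.0347% in mock.

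Cm4054 and Gm4196 were not called for stops in any condition. Cm4054 had 3.53% with CMC and 4.31% in mock under HIV RT, and Gm4196 had 3.79% with CMC and 1.997% in mock. Cm4054 had instead the lowest mutation share of the 91 C in the HIV RT CMC library, 0.0951%, and the second lowest in mock, 0.0804%, where the median C had 0.493% with CMC and 0.613% in mock. With SuperScript III its mutation share was 0.243% with CMC and 0.262% in mock with Mn and 0.0879% with CMC and 0.0680% in mock with Mg, further from the lowest ranks.

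**Figure D4:**
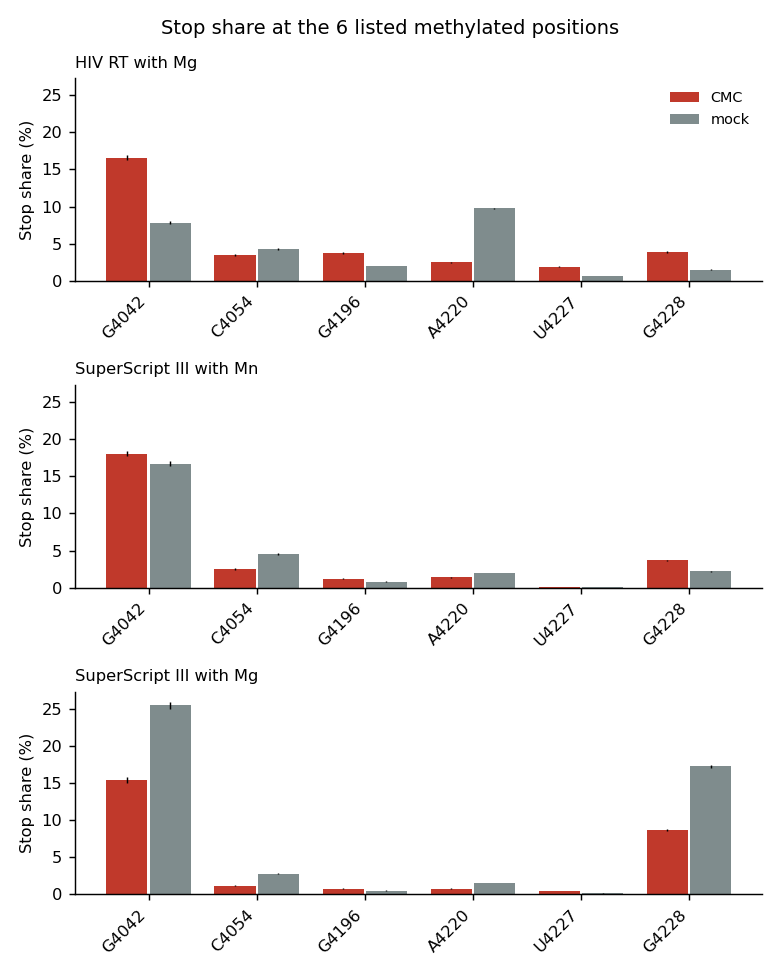
Stop share in percent with CMC (red) and in mock (grey) at the 6 listed methylated positions, with 1 panel for each condition, bars for single libraries and lines for Wilson 95% intervals. A4220 has a tall mock bar under HIV RT (9.78%), G4228 has one under SuperScript III/Mg (17.2%), and G4042 is high in all panels.

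Few positions of the window changed in mutation share by 5 points or more. Under HIV RT, 1 position rose, U4044, and none fell, while 1.05% of all tested positions rose and 0.101% fell. Under SuperScript III/Mn, 1 rose, G4150, and 3 fell, C4030, C4015 and A4170, while 1.29% rose and 0.332% fell over all tested positions. Under SuperScript III/Mg, 1 rose, again G4150, and none fell, while 0.159% rose and 0.0868% fell over all tested positions. These counts are too few to set against the background.

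U4044 was the single U of the window past 5 points. Its mutation share was 8.43% with CMC and 1.44% in mock under HIV RT, a rise of 6.99 points. It was 2.29% with CMC and 0.127% in mock under SuperScript III/Mn, and 0.162% and 0.0657% under SuperScript III/Mg. Under HIV RT 81.0% of its mismatched reads with CMC were U4044C, whereas in mock the most common was U4044A with 36.4%. U4044 lies 2 nt downstream of Gm4042, and its 3′ neighbour is G. U4031 was next under HIV RT, at 5.52% with CMC and 1.35% in mock, a difference of 4.17 points that did not reach the bar, and 72.9% of its mismatched reads with CMC were U4031C. U4202, in contrast to its stops, had 1.46% with CMC and 0.867% in mock under HIV RT, 0.956% and 0.629% under SuperScript III/Mn, and 0.870% and 0.623% under SuperScript III/Mg.

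Most U had a small increase in mismatches with CMC. The mutation share was higher with CMC at 39 of 40 U under HIV RT, 40 of 40 under SuperScript III/Mn and 38 of 40 under SuperScript III/Mg. The median difference was 0.571 points under HIV RT, 0.601 points under SuperScript III/Mn and 0.160 points under SuperScript III/Mg. At unlisted U outside the window the medians were 0.873, 0.707 and 0.125 points, and at the listed pseudouridines 4.22, 3.70 and 0.484 points. The window's U thus lay in the range of ordinary U and well under the pseudouridines by this measure as well.

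The base read at the window's U differed between CMC and mock, and not the same way in each condition. Read as C were 62.3% of the mismatched reads at U with CMC and 46.8% in mock under HIV RT. At unlisted U outside the window the shares were 59.0% with CMC and 45.1% in mock. With SuperScript III the order was turned, in the window and outside it, with 47.5% read as C with CMC and 58.8% in mock with Mn, and 50.6% with CMC and 69.0% in mock with Mg. Outside they were 47.8% with CMC and 51.3% in mock with Mn, and 52.01% with CMC and 53.1% in mock with Mg. At the listed pseudouridines the share read as C was 80.02% with CMC and 45.05% in mock under HIV RT, 70.2% with CMC and 51.6% in mock under SuperScript III/Mn, and 77% with CMC and 52.5% in mock under SuperScript III/Mg. These shares pool reads over positions, so deeply covered positions weigh more. In the SuperScript III/Mg mock library U4202 alone gave 878 of the 3385 mismatched reads at the window's U. It also gave 860 of the 2334 that were read as C.

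G4150 was the position of the window most often misread by SuperScript III with Mg, with or without CMC. Its mutation share was 24.1% with CMC (95% interval 23.6 to 24.7) and 13.0% in mock (12.6 to 13.5) under SuperScript III/Mg, a rise of 11.1 points. Under SuperScript III/Mn it was also called, at 12.3% with CMC and 6.97% in mock, and under HIV RT 0.727% with CMC and 0.756% in mock. Both calls end when a 2-fold ratio is required in addition, and the one with Mn ends at a bar of 10 points. The mismatches were thus frequent with 1 enzyme under both ions and near the median G with the other. Nearly all were of 1 kind: G4150U made up 98.9% of the mismatched reads with CMC and 98.1% in mock under SuperScript III/Mg, and 97.5% and 96.7% under SuperScript III/Mn. Its stop share was not called in any condition, at 2.21% with CMC and 3.41% in mock under SuperScript III/Mg.

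C4148, 2 nt upstream, was the only other position of the window at 5% or more in the SuperScript III/Mg libraries. Its mutation share was 11.0% with CMC and 10.5% in mock under SuperScript III/Mg, 2.33% and 2.63% under SuperScript III/Mn, and 0.394% and 0.339% under HIV RT. It was read as U as well, with C4148U at 97.5% of the mismatched reads with CMC and 94.5% in mock under SuperScript III/Mg. C4148 thus differed little between CMC and mock, whereas G4150 rose by 11.1 points. C4149, between them, had 0.349% with CMC and 0.489% in mock under SuperScript III/Mg.

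Both positions lie in the longest inverted repeat of the window, at 4129 to 4155, found by a search for arms of at least 6 bases separated by 3 to 8 bases on the deposited sequence. It is shown because C4148 and G4150 sit in its second arm. Capitals mark the 2 arms of 11 bases, 4129 to 4139 and 4145 to 4155, and the 5 bases between them are in lower case.
inverted repeat: GCGCCCGGCCGcgcgcCGGCCGGGCGC
The bases that face them in the first arm are G4136 for C4148 and C4134 for G4150. Those had mutation shares of 0.151% with CMC and 0.0766% in mock at G4136, and of 0.102% with CMC and 0.101% in mock at C4134, under SuperScript III/Mg. High misreading was thus seen in the second arm and not at the facing bases.

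**Figure D5:**
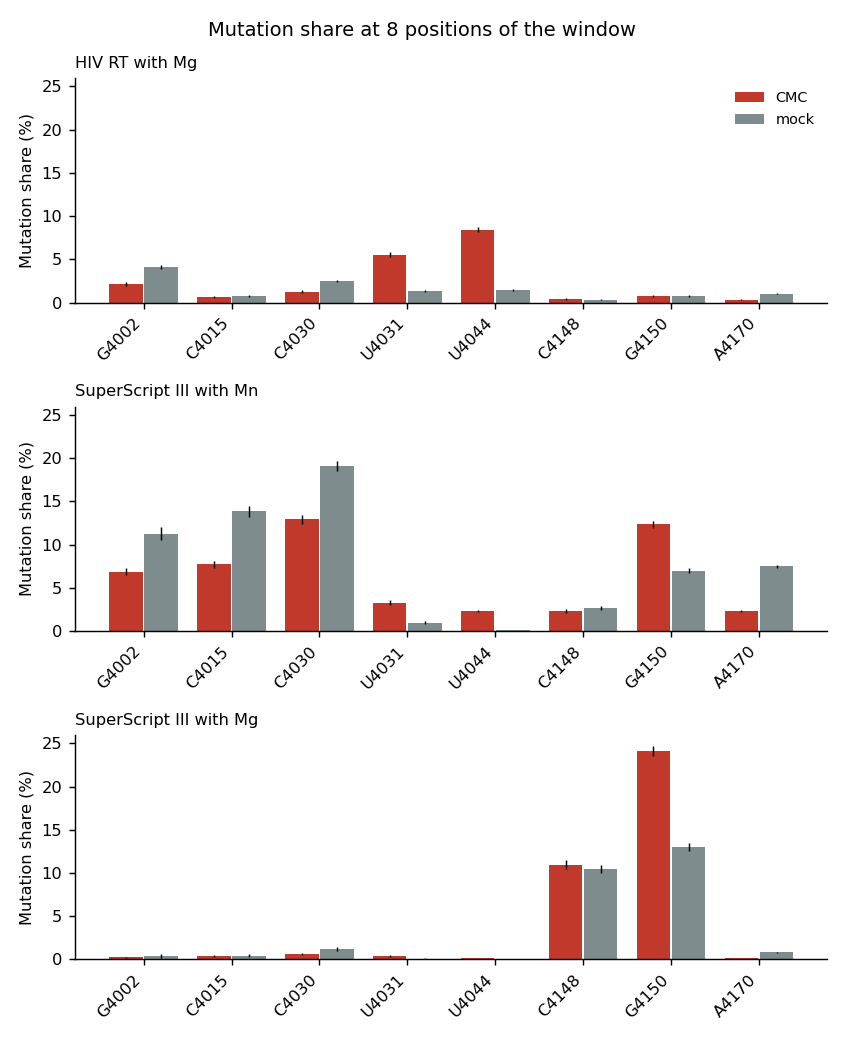
Mutation share in percent with CMC (red) and in mock (grey) at 8 positions of the window, with 1 panel for each condition, bars for single libraries and lines for Wilson 95% intervals. G4150 and C4148 are high under SuperScript III/Mg, C4030, C4015 and G4002 under SuperScript III/Mn, and U4044 under HIV RT with CMC.

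C4030, C4015 and G4002 had the 3 highest mutation shares of the SuperScript III/Mn mock library, and each was lower with CMC. C4030 fell to 12.9% with CMC, against 19.1% in mock. C4015 fell to 7.72% with CMC, against 13.8% in mock, and A4170 fell to 2.28% with CMC, against 7.48% in mock. G4002 had 6.84% with CMC and 11.3% in mock, a difference under the bar. G4156 ran the other way, with 5.72% with CMC and 1.69% in mock, also under the bar. The 4 positions C4030, C4015, G4002 and A4170 were read mainly as U: C4030U made up 94.5% of the mismatched reads with CMC and 95.3% in mock, C4015U 87.8% and 91.8%, G4002U 90.8% and 89.5%, and A4170U 86.4% and 87.9%. Reading as U was common in this mock library. Pooled over the window's positions, U made up 65.6% of the mismatched reads at C, 76.4% at G and 82.1% at A. Under SuperScript III/Mg the same 4 positions had mock shares of 1.21%, 0.422%, 0.814% and 0.384%, in the order C4030, C4015, A4170 and G4002. Under HIV RT their mock shares were 2.45%, 0.778%, 1.03% and 4.08%.

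The window was richer in such positions than the rest of the rRNA. In the SuperScript III/Mn mock library 19 of the 290 positions (6.55%) had a mutation share of 5% or more, against 1.94% of the positions outside, a difference that was not tested. With CMC 10 positions (3.45%) reached it, against 3.31% outside. In the HIV RT mock library no position reached it, against 0.918% outside, and the highest was G4002 at 4.08%. The median share of a base was less unusual: at G it was 0.568% in the window and 0.418% outside in the SuperScript III/Mn mock library, at A 0.673% and 0.446%, at C 0.387% and 0.415%, and at U 0.178% and 0.149%.

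The 3 conditions ranked the window's U alike by stops and less so by mismatches. Across the 40 U, Spearman's rho of the stop change was 0.809 between HIV RT and SuperScript III/Mg, 0.737 between SuperScript III/Mn and SuperScript III/Mg, and 0.609 between HIV RT and SuperScript III/Mn. For the mutation change it was 0.0418, 0.498 and 0.346 in the same order. Within a condition the mutation change and the stop change across the 40 U had rho of 0.254 under HIV RT, 0.166 under SuperScript III/Mn and 0.329 under SuperScript III/Mg. The points are positions of 1 RNA read in the same libraries, so they share depth and neighbours, and these values are descriptions. The stop shares of the mock libraries over all 290 positions had rho of 0.846 between the 2 SuperScript III conditions and of 0.400 and 0.438 between HIV RT and each of them (Mn and Mg).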

How the data were processed

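The authors deposited 12 tables, 1 for each of the 2 rRNAs in each of the 6 libraries. Each row, per the file headers, gives the read count that crosses a position, the count of each base read there, the reads that stopped, and a mismatch rate and stop frequency as a fraction. Trimmomatic 0.32 and Bowtie 1.0 are named per the submitters' processing notes; their settings and how reads were counted are not given in the sources used. The labels describe no alkaline step and no molecular identifiers.

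Shares were recomputed from the deposited counts as reads with another base over crossing reads, and as stops over stops plus crossing reads, and equalled the deposited fraction columns within 1.11e-16. In 12 of 12 tables the first and last rows hold 0 crossing reads, as they would if the end base of a read were not counted, and the stops of the first row equal the crossing reads of the third row less those of the second. Read together, a cDNA that ended at 1 row is booked as a stop at the row upstream, the base not copied. The median stop change was also larger at the listed pseudouridines (13.7 points under HIV RT) than 1 nt upstream (7.69) or downstream (2.50) of them. Each CMC library was compared with its mock library by Fisher's exact test (two-sided, SciPy 1.17.1, Python 3.11.15) at every position with at least 100 crossing reads in both, with Benjamini-Hochberg adjustment over both rRNAs. A call needed an adjusted p under 0.05 and at least 5 points. The rule for calls was checked on simulated counts at the real depths, for mutation under HIV RT and stops under SuperScript III/Mg only. The simulation held counting error but no PCR copies and no variation between libraries. It therefore cannot show how the calls would hold in replicates. With 1 library per group, calls compare libraries, not treatments, and depth differs between the libraries of a pair. Reads pooled by base and other bars, minimums and placements of the stop were tried as alternatives.

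The window, the sites, the lists and the rule for named positions were chosen with earlier results of these data known. By that rule the text names the listed sites with their neighbours within 2 nt, the 5 largest called rises and 3 largest called falls of each condition and measure, positions called repeatedly, and the 3 highest mock shares. Of 108 pseudouridines listed from general knowledge, 100 fell on a U and were used, outside the window only.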

Additional observations from a re-analysis of the deposited data

Results flagged for a closer look

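At 4 positions of the window the stop share was called in opposite directions under different reverse transcription conditions. Such positions were not counted outside the window, so the number cannot be called particular to it. The difference between conditions was not tested, since each rests on 1 library per group. At C4038 the change, CMC minus mock, was 6.32 points under HIV RT, 6.74 points under SuperScript III/Mn and -6.30 points under SuperScript III/Mg. At G4042, the listed ribose methylation, it was 8.72 points under HIV RT and -10.01 points under SuperScript III/Mg. At C4162 it was 9.996 points under HIV RT and -5.59 points under SuperScript III/Mg. At U4163 it was 5.70 points under HIV RT, -9.07 points under SuperScript III/Mn and 5.11 points under SuperScript III/Mg. U4163 was the only U of the window with a called fall, and its mock share under SuperScript III/Mn, 16.9%, was the highest of the 3 mock libraries (2.51% under HIV RT, 11.4% under SuperScript III/Mg).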

How the results depend on the processing

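No paired analysis was possible because each group is 1 library, and for the same reason no library could be left out in turn. In the order HIV RT, SuperScript III/Mn and SuperScript III/Mg, a bar of 2 points gave 61, 38 and 40 stop rises and 37, 40 and 48 stop falls, and a bar of 10 points gave 7, 7 and 9 rises and 2, 2 and 6 falls. At U the rises were 18 under SuperScript III/Mn with a bar of 2 points, and 5, 4 and 7 with a bar of 10 points. With the median change of the same base outside the window taken off, they were 7, 7 and 8 at U, and over all bases 21 under HIV RT and 12 under SuperScript III/Mg. Booking each stop 1 nt toward the 3′ end left 13, 6 and 8 rises at U, and toward the 5′ end 7, 1 and 4. A 2-fold ratio left 11 stop falls under SuperScript III/Mn. For mutation, a bar of 2 points gave 5 rises and 2 falls under HIV RT and 10 rises and 14 falls under SuperScript III/Mn, a bar of 10 points gave 0 rises under HIV RT and 0 rises and 0 falls under SuperScript III/Mn, and a 2-fold ratio left 0 rises with either ion under SuperScript III and 1 fall with Mn. Counts with at least 1000 crossing reads or an adjusted p under 0.001 stayed within 1.5 times of those reported. Less the median change of U outside the window, the median mutation change at the window's U became -0.408, -0.173 and 0.0227 points, and the median stop change 1.76, 0.344 and -0.119 points. The U taken off there include the listed pseudouridines. Under SuperScript III/Mg the median stop change at the window's U, 3.87 points, was above the 3.49 points at unlisted U outside. With reads pooled over U the mutation change was 0.926, 0.790 and 0.199 points and the stop change 3.95 and 6.43 points under SuperScript III/Mn and SuperScript III/Mg. Without U next to another U the mutation change was 0.486 and 0.0960 points under those 2, and the stop change 3.00, 1.06 and 3.00 points in the 3 conditions. Pooled mutation levels of the HIV RT mock library were 0.522% at U, 0.830% at G, 0.795% at A and 0.835% at C, those of SuperScript III/Mn 0.262%, 0.962%, 1.18% and 0.975%, and those of SuperScript III/Mg 0.0812%, 0.162%, 0.167% and 0.238%. Subtracting the same-base median, or counting stops in the denominator, changed no call at the 9 listed sites, whereas the rises of G4150 are those lost to the 2-fold ratio and, with Mn, to the bar of 10 points. The cause of these shifts was not tested beyond what each setting does by construction. Depth limits single positions least, while the lack of replicates limits all of them.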
